A study of Mus musculus with 4 samples.

Results

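The 6 genes *Mef2a*, *Mef2b*, *Mef2c*, *Mef2d*, *Srf* and *Myocd*, which encode the MEF2 factors, SRF and myocardin, were taken by name from the 21938 protein-coding genes of the GENCODE M21 annotation. A peak was counted at a gene when it overlapped the gene body or lay within 10 kb of an annotated transcription start site (TSS). By this rule 22 of 25745 *Smyd1-KO*-enriched peaks lay at these genes, against 0 of 106 WT-enriched peaks.

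ATAC-seq, in which a transposase cuts accessible DNA, was used to ask how chromatin accessibility depends on SMYD1, a muscle-restricted enzyme that methylates histones. Whole hearts at embryonic day 9.5 were either wild type (WT) or *Smyd1-KO*, that is, from embryos homozygous for a mutated *Smyd1* allele in all cells, bred from a heterozygous stock. Each genotype had 2 libraries, and a library pooled 4 hearts from which 40000 viable cells were taken. The authors combined the libraries of a genotype before they listed peaks that differed at least 2-fold, so that 1 score stands for each peak, in tags pooled over both libraries, and no value below has a replicate error. Scores of the WT and the *Smyd1-KO* list were not compared with each other. *Smyd1-KO* scores come in steps of 0.5 tags and are thus not plain counts. Intervals on scores are exact Poisson 95% intervals of the score cut to whole tags, an approximation that covers counting error only. The depth of each library is unknown from the lists. Since the hearts were whole, a change in the share of cells with an open site and a change in accessibility per cell cannot be told apart.

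MEF2 proteins and SRF belong to the MADS-box family of transcription factors. MEF2 binds A/T-rich sites in muscle gene promoters and enhancers, and class IIa histone deacetylases hold it inactive. SRF binds the CArG box as a dimer, and myocardin, which does not bind DNA by itself, joins SRF as a strong coactivator in cardiac and smooth muscle.

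All 6 genes had at least 1 *Smyd1-KO*-enriched peak, where 62.6% of protein-coding genes did. At least 2 such peaks were present at 6 of 6 genes, against 29.4% of protein-coding genes. Where the nearest TSS had to be the gene's own, 5 genes had at least 2 and *Srf* had 1. The share of all genes with at least 2 was not computed for that setting, where the share with any peak was 50.9%. A peak within 1 kb of one of the gene's own TSSs was present at 6 of 6 genes, against 48.1%. With only the most upstream TSS of each gene it was present at 5, which left *Mef2c* without one. *Mef2b* was then counted through a peak nearer to the TSS of *Rfxank*. The share of all genes was not computed for that setting. No gene had a WT-enriched peak, and only 0.155% of protein-coding genes had one. *Mef2b* and *Mef2c* had 5 peaks each, *Mef2d* had 4, *Mef2a* and *Myocd* had 3 each, and *Srf* had 2. Of the 22 peaks, 10 lay within 1 kb of a TSS of the gene, 12 lay farther away, and 3 covered a TSS of the gene. All peaks were 149 bp wide, so their scores can be set side by side. Below, the peaks of a gene carry letters in the order of the chromosome, which for genes on the minus strand runs against transcription.

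**Figure D1:**
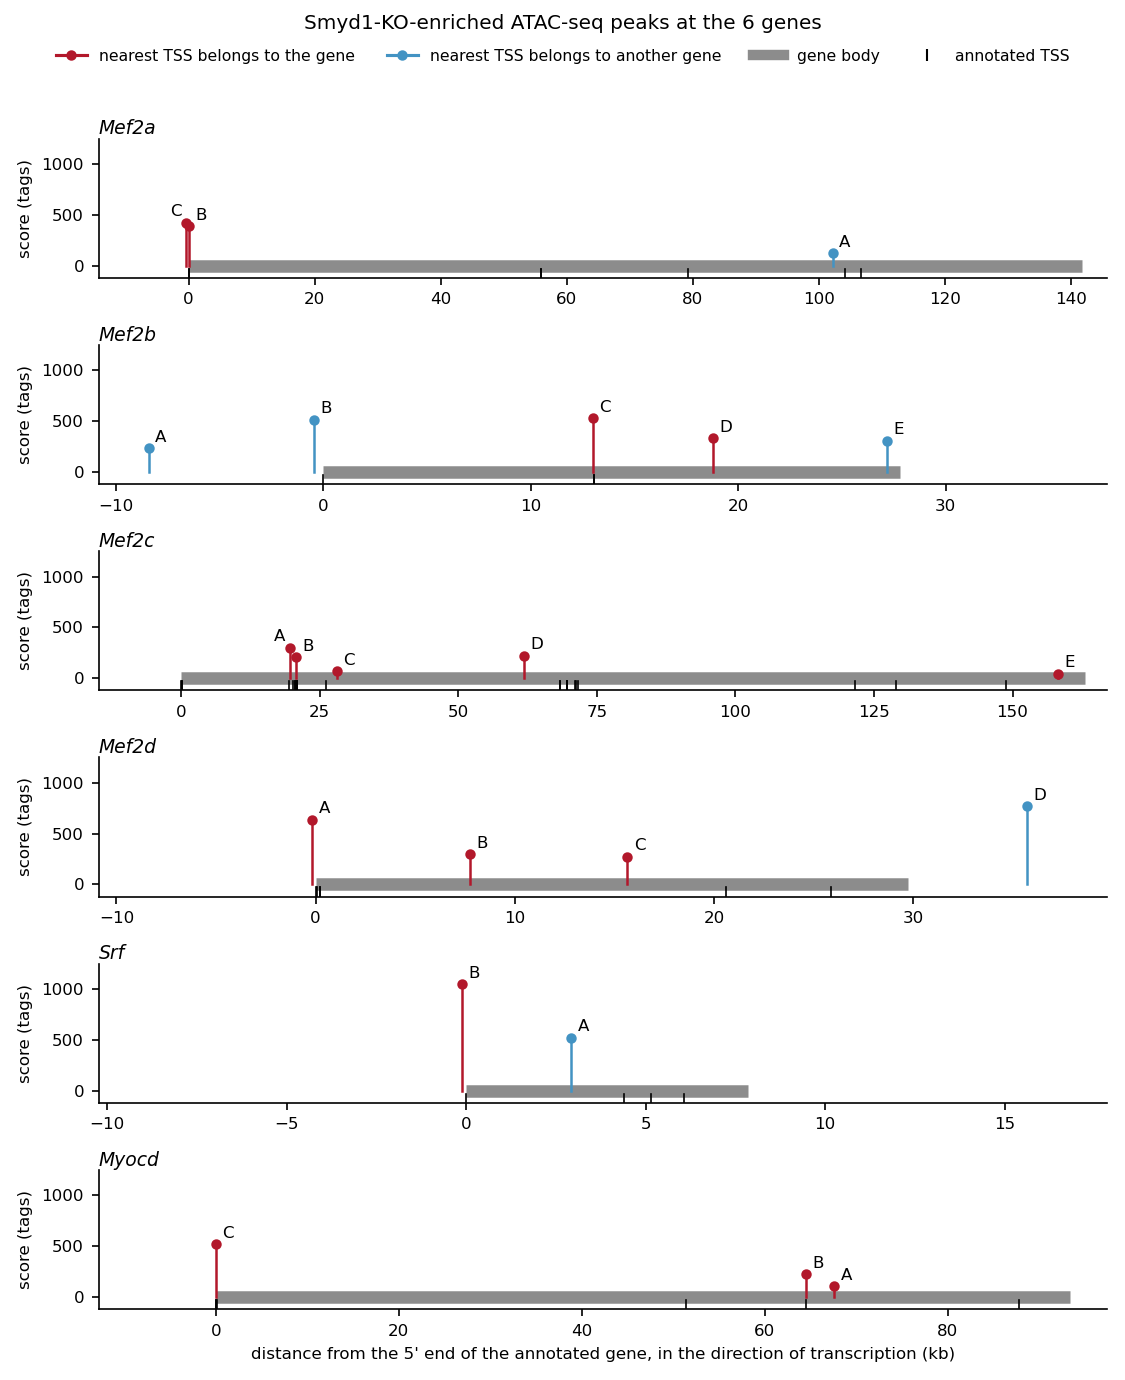
Positions of the 22 *Smyd1-KO*-enriched peaks at the 6 genes: the horizontal axis is the distance from the 5′ end of the gene in the direction of transcription (kb, a different range for each gene), and the height of each pin is the score in pooled tags. The grey bar is the gene body, black ticks are annotated TSSs, and blue pins mark the 6 peaks whose nearest TSS belongs to another gene. The *Srf* promoter peak, at 1049 tags, is the tallest pin.

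*Srf* (chr17:46548329-46556175, minus strand, mm10) had the strongest peak of all. Peak B (chr17:46556215-46556363), 40 bp upstream of the TSS of Srf-201, had a score of 1049 tags (interval 986.5 to 1114) and ranked 630 of 25745, with 97.6% of the list below it. It was the only one of the 22 peaks with a match to the CArG box consensus, the site that SRF itself binds, and it held 2 matches. Their first bases in the direction of transcription lie at positions -49 and -69 from the TSS. The whole peak is shown on the strand of the gene, 5′ to 3′, with both CArG matches in capitals.
Srf peak B: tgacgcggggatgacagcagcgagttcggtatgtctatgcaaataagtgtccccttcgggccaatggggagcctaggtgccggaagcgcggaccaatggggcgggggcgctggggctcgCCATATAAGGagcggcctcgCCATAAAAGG

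The other *Srf* peak, A (chr17:46553171-46553319), lay in an intron and had 521.5 tags. It was 1378 bp from the nearest *Srf* TSS, that of the retained-intron transcript Srf-204, and closer, at 570 bp, to the start of the microRNA gene *Mir6976*. Peak A overlapped the annotated gene *Gm26904* as well, as did peak B. Only 1 of the 4 annotated *Srf* TSSs, that of the full-length transcript, had a peak within 1 kb.

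*Myocd* (chr11:65176561-65269989, minus strand) had its strongest peak over its 5′ end. Peak C (chr11:65269904-65270052) covered the TSS of Myocd-202 and part of the 5′ UTR, with 522 tags (478.2 to 568.8). Peak B (chr11:65205370-65205518) covered an internal TSS, that of the protein-coding transcript Myocd-204, 64522 bp into the gene, and had 223 tags (194.7 to 254.3). Peak A (chr11:65202307-65202455), in an intron 3012 bp past the same TSS, had 104.5 tags, below the list median of 180.5. The intervals of peaks C and B did not overlap, and that of peak A (84.98 to 126) was below both. At 4 of the 6 annotated TSSs a peak lay within 1 kb. Peak B is shown because it marks the internal start, 5′ to 3′ on the strand of the gene, with a match to the GATA string in capitals.
Myocd peak B: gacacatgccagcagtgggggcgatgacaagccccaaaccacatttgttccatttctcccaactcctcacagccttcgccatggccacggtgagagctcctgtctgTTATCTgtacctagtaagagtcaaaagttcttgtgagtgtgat

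*Mef2c* (chr13:83504034-83667080, plus strand), the member best known for its role in the embryonic heart, had 5 peaks, all with a *Mef2c* TSS as the nearest TSS, and the lowest median score of the 6 genes, 209 tags. Its 2 TSS-near peaks lay among internal starts that are annotated from 19439 to 20886 bp into the gene. Peak A (chr13:83523676-83523824) had 300.5 tags (267 to 335.9) and began 203 bp past the TSS of Mef2c-207. Peak B (chr13:83524613-83524761) covered the TSS of Mef2c-223 in the 5′ UTR with 209 tags (181.6 to 239.3). The most upstream starts (chr13:83504034-83504240) and those at chr13:83572348-83575677 had no such peak within 1 kb. In all, 11 of the 27 TSS positions had a peak within 1 kb. Because the lists hold differential peaks only, a start without a listed peak may be open in both genotypes.

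The other 3 *Mef2c* peaks were intronic or exonic. Peak D (chr13:83565761-83565909), in an intron 6439 bp upstream of Mef2c-208, had 222.5 tags (193.8 to 253.2), so its interval overlapped that of peak B over a TSS. Peak C (chr13:83532042-83532190), 1904 bp past the TSS of Mef2c-216, had 68.5 tags, and peak E (chr13:83662169-83662317), over a coding exon near the 3′ end, had 45 tags and ranked 24141. These were the only 2 of the 22 peaks below the lower quartile of the list, 81 tags. Peak A, without its UTR bases (chr13:83523710-83523824), and peak D are shown as the promoter and the distal peak of this gene, both 5′ to 3′ on the plus strand. Capitals mark an NKX2-5 match in peak A, and a GATA match followed by a TEAD match in peak D.
Mef2c peak A: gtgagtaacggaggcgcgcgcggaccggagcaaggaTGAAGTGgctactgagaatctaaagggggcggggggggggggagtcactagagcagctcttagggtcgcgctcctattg
Mef2c peak D: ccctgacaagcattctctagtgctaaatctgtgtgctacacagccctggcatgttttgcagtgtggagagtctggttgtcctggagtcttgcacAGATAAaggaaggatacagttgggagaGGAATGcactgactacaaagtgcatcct

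*Mef2a* (chr7:67231163-67372858, minus strand), which is widely expressed and prominent in postnatal heart, had 2 peaks at its 5′ end. Peak C (chr7:67373133-67373281), 275 bp upstream of the TSS, had 422.5 tags (382.7 to 464.2). Peak B (chr7:67372678-67372826), 1 bp from the TSS of Mef2a-207 and over the 5′ UTR, had 388.5 tags (350.3 to 428.6), so the scores of this pair did not differ beyond counting error. Peak B had the highest GC content of the 22 peaks, 81.2%. Peak A (chr7:67270552-67270700) lay in an intron 102232 bp into the gene with 124.5 tags (103.1 to 147.8). It was 1838 bp from a *Mef2a* TSS, but 1542 bp from that of *Gm44667*, and it overlapped *Gm44667* and *Lysmd4*. Peak A had the lowest GC content, 45.0%, and was the only peak with matches to the GATA, TEAD and NKX2-5 strings together. It is shown 5′ to 3′ on the strand of *Mef2a*, with these 3 matches in capitals in that order.
Mef2a peak A: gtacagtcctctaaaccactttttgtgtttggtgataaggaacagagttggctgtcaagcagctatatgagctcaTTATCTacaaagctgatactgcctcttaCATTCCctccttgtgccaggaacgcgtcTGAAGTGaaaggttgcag

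*Mef2d* (chr3:88142372-88172086, plus strand), another widely expressed MEF2 factor, had 4 peaks with a median score of 466.8 tags, which was 295 tags without peak D, where only TSSs of protein-coding transcripts were used. Its promoter peak A (chr3:88142125-88142273), 99 bp upstream of the TSS, had 638.5 tags (589.4 to 689.5). Peak B (chr3:88150049-88150197) in an intron had 295 tags, and peak C (chr3:88157944-88158092), which touched a coding exon, had 273.5 tags, with overlapping intervals (262.3 to 330.7 and 241.6 to 307.4). The strongest peak counted at *Mef2d*, D (chr3:88177985-88178133), with 771 tags (717.5 to 827.4), lay downstream of the gene. It met the rule only through the non-coding transcript Mef2d-207, at 9733 bp, and was 200 bp from the TSS of *1700113A16Rik*. Peak A is shown 5′ to 3′ on the plus strand as the promoter peak of *Mef2d*. It is 75.8% G or C and had no match to any of the strings searched, so no base is in capitals.
Mef2d peak A: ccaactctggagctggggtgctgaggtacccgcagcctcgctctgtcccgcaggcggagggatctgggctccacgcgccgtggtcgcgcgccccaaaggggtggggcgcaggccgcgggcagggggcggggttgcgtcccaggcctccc

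*Mef2b* (chr8:70139711-70167488, plus strand), best known from germinal centre B cells, lies in a gene-dense stretch, and 3 of its 5 peaks were nearest to another gene's TSS. Peak C (chr8:70152619-70152767), 11 bp upstream of the TSS of Mef2b-204, had 532 tags (487.7 to 579.2), the highest score at this gene. Peak D (chr8:70158433-70158581), in an intron 5652 bp past the nearest TSS, had 328.5 tags (293.5 to 365.5). Peak E (chr8:70166831-70166979), over a coding exon and the 3′ UTR, had 307.5 tags and lay 5377 bp from the TSS of *Tmem161a*. Peaks A and B were counted only through the transcript Mef2b-205, whose first exon lies upstream in *Borcs8*. Peak A (chr8:70131223-70131371; 235.5 tags) covered the TSS of *Nr2c2ap*, and peak B (chr8:70139190-70139338; 515 tags) was 36 bp from that of *Rfxank* and 373 bp from that of Mef2b-205. Without that transcript *Mef2b* had 3 peaks. The upstream part of peak C (chr8:70152619-70152760) is shown 5′ to 3′ on the plus strand as the peak at the common *Mef2b* starts. It holds an E-box, which is not set in capitals in any sequence shown.
Mef2b peak C: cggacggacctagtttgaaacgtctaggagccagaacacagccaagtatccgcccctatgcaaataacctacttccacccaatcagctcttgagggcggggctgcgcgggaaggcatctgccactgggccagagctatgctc

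Longer genes have more room for peaks. Among protein-coding genes whose span was within 25% of that of the gene in question, the median number of *Smyd1-KO*-enriched peaks was 2 for the spans of *Mef2a* (141696 bp) and *Mef2c* (163047 bp), and 1 for those of *Mef2b* (27778 bp), *Mef2d* (29715 bp), *Srf* (7847 bp) and *Myocd* (93429 bp). Each of the 6 genes was above that median, but not to the same degree. At least as many peaks as at the gene itself were present at 31.7% of genes of like span for *Mef2a*, 20.7% for *Myocd*, 20.4% for *Srf*, 10.9% for *Mef2c*, 2.67% for *Mef2d* and 0.552% for *Mef2b*. The value for *Mef2b* rests on 5 peaks, of which 3 remained without Mef2b-205 and 2 where the nearest TSS had to be its own. The value for *Mef2d* rests on 4 peaks, of which 3 remained with the nearest TSS its own or with TSSs of protein-coding transcripts only. With the nearest TSS their own, *Srf* had 1 peak and *Mef2a* had 2, each equal to its like-span median under the main rule. *Mef2a* also had 2 with peaks merged over gaps of up to 1 kb. The share of genes of like span with any such peak ranged from 50.1% for that of *Srf* to 88.1% for that of *Mef2c*, so at the length of *Mef2c* most genes had one.

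**Figure D2:**
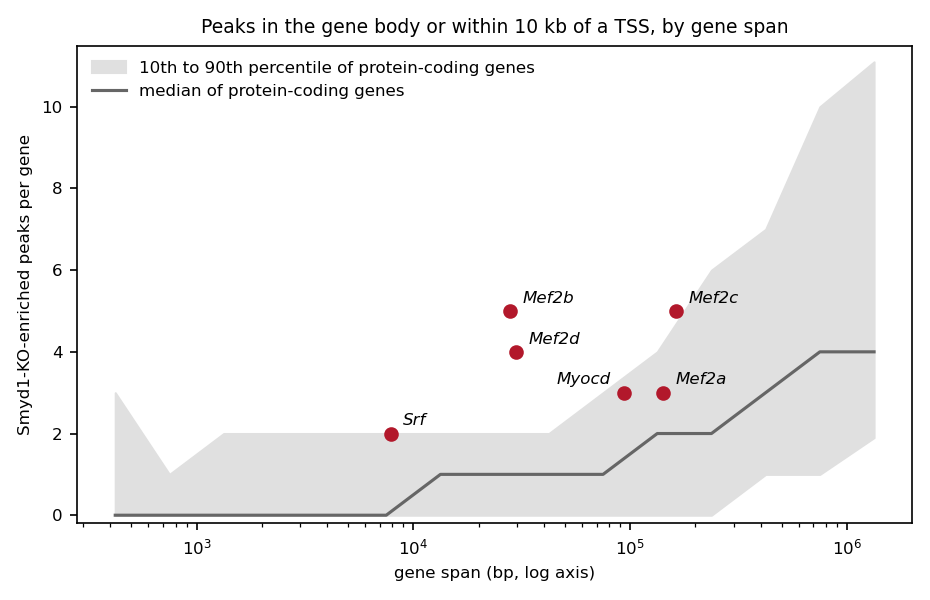
*Smyd1-KO*-enriched peaks per gene against gene span (bp, log axis). Red points are the 6 genes, the line is the median and the shaded band the 10th to 90th percentile of protein-coding genes in bins of span, joined between bins. *Mef2b* with 5 peaks, *Mef2d* with 4 and, by less, *Mef2c* with 5 lie above the band, *Srf* with 2 lies at its upper edge, and all 6 points lie above the line.

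In score, 18 of the 22 peaks were above the list median of 180.5 tags and 8 were above the upper quartile of 410. Their own median was 304 tags, with a range from 45 to 1049. Scores in the list are higher near TSSs, so the peaks were also read by position. Of the 22 peaks, 13 (59.1%) lay within 1 kb of a TSS of any gene, against 47.5% of the list. These 13 had a median of 515 tags, against 402.5 for list peaks in that position. The other 9 had a median of 222.5 tags, against 90.5, and ranged from 45 to 328.5. The 47.5%, and the list values for peaks beyond 1 kb here and below, come from the whole list. That list was not limited to gene bodies and to 10 kb around TSSs, as the 22 peaks were. Taking for each gene the strongest peak within 1 kb of its own TSSs, the order was *Srf* (1049 tags), *Mef2d* (638.5), *Mef2b* (532), *Myocd* (522), *Mef2a* (422.5) and *Mef2c* (300.5). In this order only the neighbours *Mef2b* and *Myocd* had intervals that overlapped. The strongest of these promoter peaks thus belonged to *Srf* and the weakest to *Mef2c*.

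**Figure D3:**
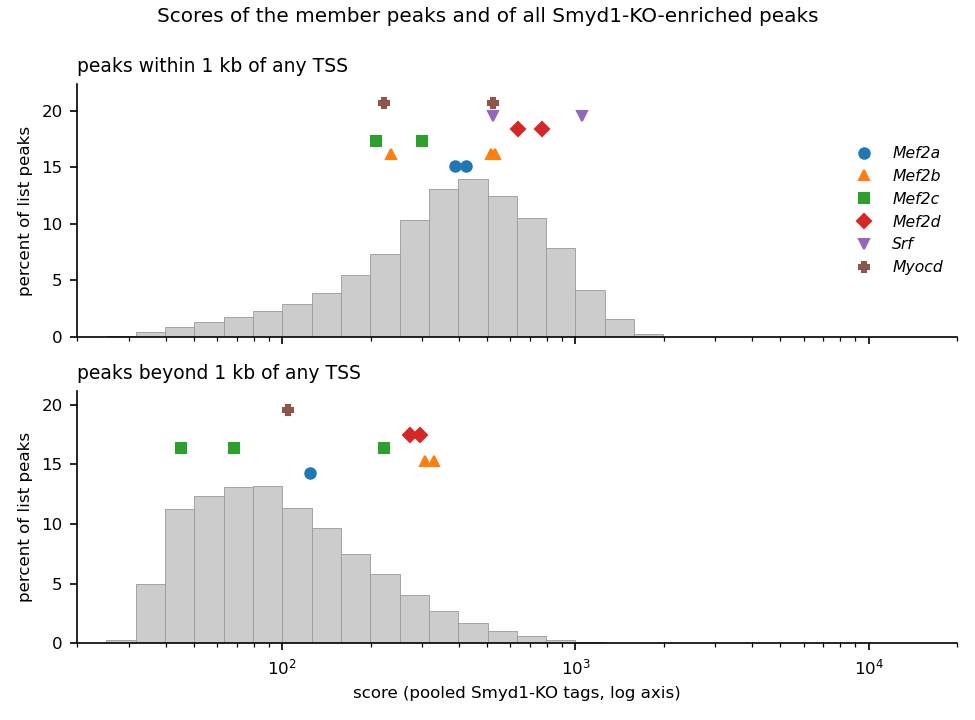
Scores of the 22 peaks (coloured symbols, 1 row per gene, height arbitrary) over the score distribution of all *Smyd1-KO*-enriched peaks (grey bars, percent of list peaks per bin), for peaks within 1 kb of a TSS of any gene (upper panel) and beyond (lower panel). The horizontal axis is the score in pooled tags on a log scale. The 13 TSS-near peaks sit at 209 to 1049 tags and the 9 others at 45 to 328.5.

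In base composition the TSS-near peaks had a median GC content of 61.1%, against 65.8% for list peaks within 1 kb of a TSS, and the others 53.7% against 52.4%. The CpG observed to expected ratio had medians of 0.859 and 0.280 in the same order, against 0.781 and 0.212 in the list. Hence the peaks near and far from TSSs differed in CpG content as they did in the whole list. None of the 114 36-base words in any of the 22 peaks recurred elsewhere in the genome.

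Sequence matches were searched on both strands, as a description of the letters and not of binding. The MEF2 consensus was absent from all 22 peaks and present in 1.76% of list peaks, which have the same length. The CArG box was in 1 peak, Srf peak B, and in 0.897% of the list. The GATA string AGATAA was in 3 peaks (Mef2a peak A, Mef2c peak D and Myocd peak B) and in 8.87% of the list. The TEAD string GGAATG was in 3 (Mef2a peak A, Mef2c peak D and Srf peak A) and in 10.6% of the list. The NKX2-5 string TNAAGTG was in 3 (Mef2a peaks A and C, and Mef2c peak A) and in 6.76% of the list. The E-box CANNTG was in 8 peaks and in 46.3% of the list, and 1 of its matches, in Mef2a peak C, overlapped the NKX2-5 match. The CTCF consensus was in 0 peaks and in 4.34% of the list. All 7 were rarer in list peaks within 1 kb of a TSS than in those beyond, for MEF2 in 0.613% and 2.79%, for CArG in 0.654% and 1.12%, for GATA in 2.63% and 14.5%, for TEAD in 5.65% and 15.0%, for NKX2-5 in 2.97% and 10.2%, for the E-box in 35.1% and 56.5%, and for CTCF in 1.5% and 6.92%. Since 13 of the 22 peaks were TSS-near, the pooled shares are only a rough measure for them.

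RefSeq promoter sequences (GRCm38) were matched by symbol for 5 of the 6 genes, with 7 start sites in all. Of the 250 bases before the start, *Smyd1-KO*-enriched peaks covered 149 at *Srf*, 149 at *Mef2d* and 142 at *Mef2b*. They covered 0 at *Mef2a* and at the 3 starts of *Mef2c*. At *Mef2a* peak C lay upstream of the window and peak B inside the gene, on either side of it. At *Mef2c* peak A began at chr13:83523676, just past the RefSeq start at chr13:83523656 and so outside its window. Both CArG matches of *Srf* lay in its window, at -82 to -73 and at -62 to -53 from the RefSeq start, and 1.63% of 32851 RefSeq promoters held a CArG match.

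The rule has a threshold in distance. Just inside it were Mef2d peak D at 9733 bp and Mef2c peak E at 9281 bp, the latter in the gene body in any case. Just outside it, the nearest uncounted *Smyd1-KO*-enriched peaks were 20761 bp upstream of *Mef2d* (122.5 tags), 21854 bp upstream of *Mef2b* (150.5 tags) and 33913 bp upstream of *Myocd* (466.5 tags). Around *Mef2c* none lay within 121179 bp upstream of its starts. Outside the gene bodies no uncounted peak was closer to a start of the 6 genes than 20761 bp.

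The partners and repressors of these factors had peaks at 12 of 15 genes (80.0%, against 62.6% of protein-coding genes), all 12 within 1 kb of a TSS. The strongest were at *Hdac4*, a class IIa deacetylase that binds MEF2 (1444 tags), and *Mrtfa*, a myocardin-related SRF coactivator (1063.5 tags). *Mamstr*, *Hdac7* and *Vgll2* had none. Of cytoskeletal and muscle genes known as SRF targets, 11 of 14 had a peak (78.6%) and 9 had one within 1 kb of a TSS (64.3%, against 48.1%). The strongest at any position were at *Vcl*, encoding vinculin (1291 tags), and *Cnn2*, encoding a calponin (900.5 tags), the latter with no peak within 1 kb. *Acta2*, *Tagln* and *Cnn1* had no peak at all. Of immediate early SRF targets, 9 of 10 had a peak, and 5 had one within 1 kb of a TSS, a share near the 48.1% of protein-coding genes. The strongest there were at *Egr1* (786 tags) and *Ccn2* (570.5 tags), and *Ccn1* had none. Of MEF2 targets, 14 of 15 had a peak (93.3%) and 10 had one within 1 kb. The strongest at any position were at *Jun* (981 tags) and *Nr4a1* (886.5 tags), the latter with no peak within 1 kb. *Myom2* had no peak at all. *Smyd1*, the gene that was mutated and a MEF2 target, had 2 peaks, the stronger with 668 tags and neither within 1 kb of a TSS. No gene of these lists had a WT-enriched peak. These lists were drawn up by hand and their genes differ in length, so the shares describe the lists and were not tested.

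**Figure D4:**
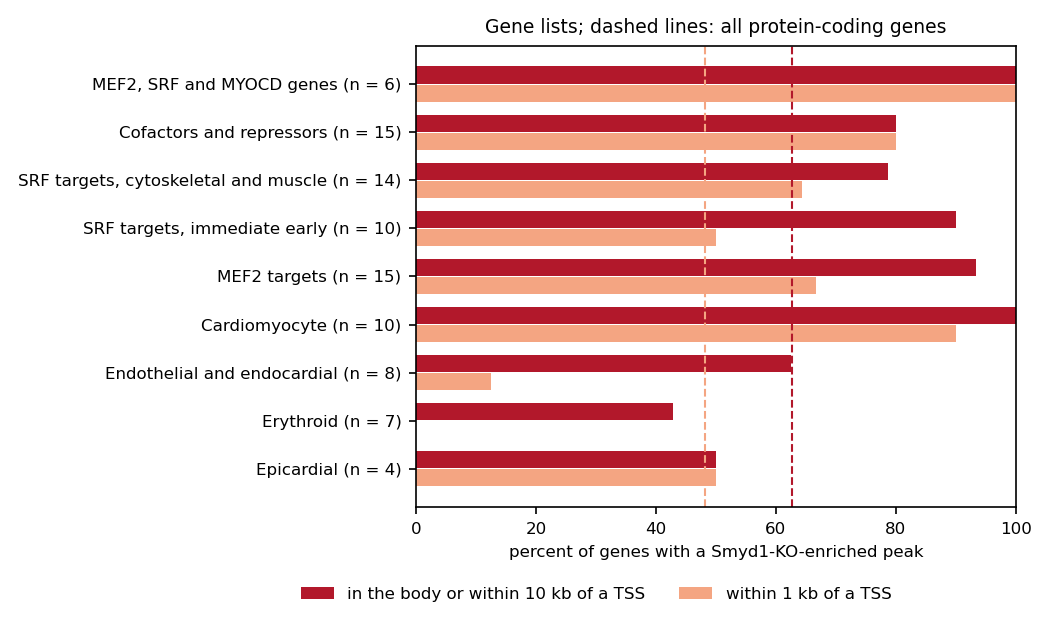
Percent of genes with a *Smyd1-KO*-enriched peak in the body or within 10 kb of a TSS (dark bars) and within 1 kb of a TSS (light bars), for the 6 genes, 4 lists of partners and targets and 4 lists of cell type markers. Dashed lines are all protein-coding genes, 62.6% and 48.1%. The 6 genes and the cardiomyocyte list reach 100% for the wider window, and the erythroid list has 0% for the narrower.

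Markers of the cell types in a whole heart were read against the same background, 62.6% of protein-coding genes for the wider window and 48.1% for that of 1 kb, with no test, since each list has 10 genes or fewer. Peaks lay at 10 of 10 cardiomyocyte markers, 9 of them with one within 1 kb of a TSS, led by *Actc1* (619.5 tags) and *Ryr2* (601 tags). They lay at 5 of 8 endothelial and endocardial markers (62.5%, at the background), with 1 of 8 within 1 kb, and *Cdh5*, *Tie1* and *Emcn* had none. The strongest endothelial peaks, at *Flt1* (179.5 tags) and *Nfatc1* (165.5 tags), were below the list median. They lay at 3 of 7 erythroid markers, 0 within 1 kb, with *Hbb-bh1*, *Hbb-y*, *Gata1* and *Alas2* having none, and the strongest at *Epor* (799.5 tags) and *Klf1* (677.5 tags). They lay at 2 of 4 epicardial markers, *Tbx18* (338.5 tags) and *Wt1* (221.5 tags), and at neither *Tcf21* nor *Upk3b*. None of these markers had a WT-enriched peak. The cardiomyocyte list shares genes with the target lists, *Actc1* with the SRF targets and *Myh6* and *Myl7* with the MEF2 targets. The part that the mix of cell types has in the peaks at the 6 genes was not tested.

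Many genes had the same layout of peaks as one of the 6, counted within 1 kb of a TSS, from 1 to 10 kb and in the body beyond. The number was 1762 for *Srf*, 340 each for *Mef2a* and *Myocd*, 107 for *Mef2d*, 26 for *Mef2c* and 13 for *Mef2b*. The layout of *Mef2b* includes the 2 peaks counted through Mef2b-205 only. Among them the nearest in summed score were *Aldoa* and *Chchd7* for *Srf* (1572 and 1574.5 tags, against 1570.5), and *Rc3h2* and *Zfp36l1* for *Myocd* (847.5 and 846.5, against 849.5). For *Mef2a* they were *Strn4* and *Synj2* (935.5 and 934 tags, against 935.5), and for *Mef2c* they were *Nsmaf* and *Uggt1* (831 and 910 tags, against 845.5). For *Mef2d* they were *Mark2* and *Hist1h2ag* (1983 and 1983.5 tags, against 1978), and for *Mef2b* they were *Unc13a* and *Garnl3* (1867.5 and 2274.5 tags, against 1918.5).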

How the data were processed

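Per the labels and the study's methods, reads were aligned to mm10 with BWA-MEM, peaks were called with HOMER 4.10.3 and annotated with ChIPseeker 1.20.0. The deposited lists hold peaks that the authors found to differ at least 2-fold between pooled genotypes, with a signal for each, the pooled tags (the score). *Smyd1-KO* scores were multiples of 0.5 tags in 100% of peaks and WT scores in 12.3%. Whether the WT scores had been rescaled is not given in the sources used here. The treatment of duplicates and of the Tn5 offset is not given in the sources used here. Either could change which peaks are listed.

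Peaks were placed against GENCODE M21 (GRCm38, the same sequence as mm10) with python 3.11.15, pandas 2.3.3 and numpy 2.4.6, and sequences were read with pysam 0.24.0. Distances run from the nearer edge of a peak, and coordinates count from 1. Bases in UTRs of GENCODE or curated RefSeq transcripts were not printed. The placement was tested on simulated peaks. The 6 genes and all lists were chosen with earlier results of these data known. Named were all 6 genes, in each list the 2 genes with the strongest peaks and those without a peak where 5 or fewer, and the 2 genes most like each of the 6. *Smyd1* was named beyond this rule. Since the lists are pooled, no test was made. Alternatives varied the window, the TSSs, the score and the assignment of peaks.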

Additional observations from a re-analysis of the deposited data

How the results depend on the processing

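No paired analysis was possible because the libraries of each genotype were pooled in the lists, and for the same reason no replicate could be left out. Under 9 other settings and 1 added after seeing the data (*Mef2b* without the transcript Mef2b-205), all 6 genes had a *Smyd1-KO*-enriched peak and none had a WT-enriched peak. The number of peaks ranged from 16, where the nearest TSS had to be the gene's own, to 22, and their median score from 297.8 to 358.5 tags. With 1 TSS per gene, 6 peaks in place of 10 lay within 1 kb. Where the nearest TSS had to be the gene's own, *Srf* had 1 peak and *Mef2b* had 2, while *Mef2b* had 3 without Mef2b-205 and *Mef2c* had 3 with scores at or above the list median. The share of protein-coding genes with a peak, 62.6%, was 56.7% with a 3 kb window, 59.6% without gene bodies, 61.5% with TSSs of protein-coding transcripts only or with 1 TSS per gene, 51.5% with scores at or above the list median, and 50.9% with the nearest TSS the gene's own. The lists do not give the depth reached in each library, for which the labels name 1 common target, so which weak sites they miss cannot be said.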
